A study of Mus musculus with 12 samples.

Results

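The 35 nuclear genes described here encode subunits of mitochondrial complex I, and they were taken by symbol from the 21899 genes of an FPKM table of mouse kidney messenger RNA. FPKM counts fragments per kilobase of exon and scales them to the library's total, so it is a level per length. All 35 genes were found in the table, and all 35 passed the filter on low values, which asked for 0.3 FPKM or more in 3 or more libraries, as did 12897 genes in all. The filter took no account of group, and every one of the 35 was above it in more than 1 group.

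Complex I (NADH:ubiquinone oxidoreductase) is the entry point of electrons from NADH into the respiratory chain. Its matrix arm holds the NADH-binding and quinone-binding modules with their flavin and iron-sulphur clusters, and its membrane arm pumps protons. Most of its subunits come from the nucleus, the hydrophobic pump subunits are encoded in mitochondrial DNA, and the kidney tubule, which reabsorbs filtered solutes, is rich in mitochondria that depend on it.

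The 12 libraries of whole-kidney RNA fall into 4 groups of 3. The db/m-GABP-OE group was labelled as overexpressing GABP on the db/m background, and the db/db-GABP-KD group as knocked down for GABP on the db/db background. The db/db-veh group was the diabetic nephropathy group given vehicle, and the db/m-veh group was the normal control given vehicle. The db mutation disables the leptin receptor: db/db homozygotes grow obese and diabetic, whereas db/m heterozygotes stay lean. GABP is an ETS-family transcription factor, built of a DNA-binding alpha subunit and a beta subunit, that is known to bind promoters of nuclear genes for respiratory chain proteins. The sources used here do not give how GABP was raised or lowered. Each group had 6 mice, and RNA was extracted from 3 mixed tissues at a time. The labels do not say whether libraries come from separate pools, so p-values measure only the spread between these libraries, which may be technical.

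The libraries held 6.78 to 9.70 M fragments in genes, and the mitochondrially encoded genes took between 48.0% of them, in db/db-GABP-KD 1, and 86.0%, in db/db-veh 2. Because FPKM divides by all fragments, most results are given as deposited and again after median-of-ratios scaling. Its factors ran from 0.527 (db/db-veh 2) to 1.71 (db/db-GABP-KD 1). Lists of related genes, mRNA lengths and, under the GABP labels, medians by place in the complex are mostly given after that scaling alone. Gabpa, the alpha subunit of GABP, stood at 3.45, 3.35 and 3.71 FPKM in db/m-GABP-OE, at 6.62, 2.66 and 3.40 in db/db-GABP-KD, at 2.20, 2.17 and 1.63 in db/db-veh, and at 1.79, 2.32 and 2.54 in db/m-veh. Gabpa was thus no lower where the label says GABP-KD than in db/db-veh, with a log2 fold change of 0.84 (limma adjusted p = 0.345) as deposited and 0.31 (adjusted p = 0.896) after median of ratios. In the libraries labelled GABP-OE its log2 fold change over db/m-veh was 0.57 (limma adjusted p = 0.435) as deposited and 0.19 (adjusted p = 0.999) after median of ratios. Tubule markers were present in every group, with all 8 proximal tubule genes measured. Of the 3 adrenal genes, Cyp11b1 and Cyp11a1 were at 0 in every library. The remaining adrenal gene, Star, was measured in every library, from 0.057 FPKM in db/m-GABP-OE to 0.789 FPKM in db/db-veh. In bulk tissue, fewer cells of a type and less RNA per cell cannot be told apart.

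Levels differed widely between subunits. The highest mean FPKM over the 12 libraries belonged to Ndufa13 at 80.7, a membrane-arm subunit also known as GRIM-19, to Ndufa8 at 78.6, a membrane-arm subunit facing the intermembrane space, and to Ndufs8 at 66.1, a core subunit that carries iron-sulphur clusters. The lowest belonged to Ndufb5 at 3.79 and Ndufb2 at 0.531, both of the distal membrane arm, and to Ndufab1 at 1.89, the mitochondrial acyl carrier protein. Ndufa13 averaged 130 ± 31.8 FPKM in db/m-GABP-OE, 81.0 ± 48.7 FPKM in db/db-GABP-KD, 29.8 ± 19.1 FPKM in db/db-veh and 82.6 ± 25.3 FPKM in db/m-veh (SD, n = 3 each). Ndufa8 averaged 121 ± 23.7 FPKM in db/m-GABP-OE, 71.7 ± 50.7 FPKM in db/db-GABP-KD, 33.4 ± 12.8 FPKM in db/db-veh and 88.8 ± 24.6 FPKM in db/m-veh. For both genes db/m-GABP-OE was highest and db/db-veh lowest, and db/db-GABP-KD and db/m-veh lay within each other's spread. The 3 low genes have long merged exon models of 4995, 5628 and 6883 bases, against a median of 1569 bases over the 35, and FPKM divides by that length. Together the 35 genes gathered 3729 to 23704 fragments per library.

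The sum of the 35 genes was 1186, 1647 and 1558 FPKM in the db/m-GABP-OE libraries, 1693, 611 and 697 in db/db-GABP-KD, 485, 287 and 588 in db/db-veh, and 1010, 784 and 1157 in db/m-veh. The 3 db/db-veh libraries were the lowest of the 12. As a share of all nuclear FPKM the sum was 1.02%, 1.10% and 1.02% in the db/m-GABP-OE libraries, 1.04%, 0.873% and 0.949% in db/db-GABP-KD, 0.740%, 0.760% and 0.794% in db/db-veh, and 0.904%, 1.11% and 1.13% in db/m-veh. On that scale, which leaves the mitochondrially encoded fragments out, the db/db-veh libraries were again the 3 lowest, and the other groups overlapped.

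**Figure D1:**
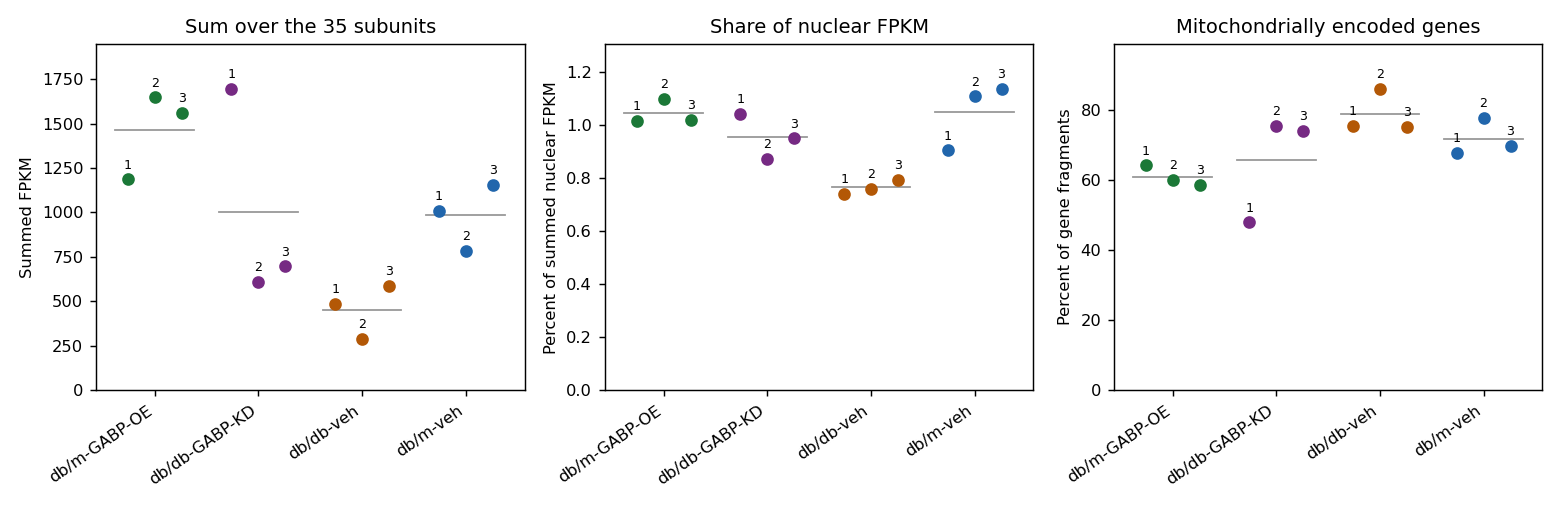
Summed FPKM of the 35 subunits, their percent of summed nuclear FPKM, and the percent of gene fragments from mitochondrially encoded genes, with 1 point per library (replicate number beside it) and a grey line at the group mean. The db/db-veh libraries hold the 3 lowest shares (0.740% to 0.794%), and db/db-GABP-KD 1 stands apart from the other db/db-GABP-KD libraries in the sum and in the mitochondrial percent.

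The subunits moved together between libraries as deposited. The median Pearson correlation of their log2 values over the 12 libraries was 0.785, and all 595 pairs were above 0; the pairs share libraries and each library's depth. After median of ratios the median was 0.409, and 455 of 595 pairs stayed above 0. Pairs of other genes are not given beside them, so this likeness is not shown to be particular to the subunits. Most accessory subunits still followed the mean of the other members, with Ndufb10, a distal membrane-arm subunit, closest to it (r = 0.966). Below 0 were Ndufs1 (r = -0.645) and Ndufs3 (r = -0.378), both core subunits, Ndufa9 (r = -0.158), which sits beside the quinone site, and Ndufv1 (r = -0.071), which binds NADH and flavin. The next lowest were Ndufb8 (0.131), Ndufb2 (0.154), Ndufab1 (0.166) and Ndufb5 (0.247), all of the distal membrane arm. The other core subunits were above 0, with Ndufv2 at 0.803, Ndufs7 at 0.501 and Ndufs8 at 0.414.

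**Figure D2:**
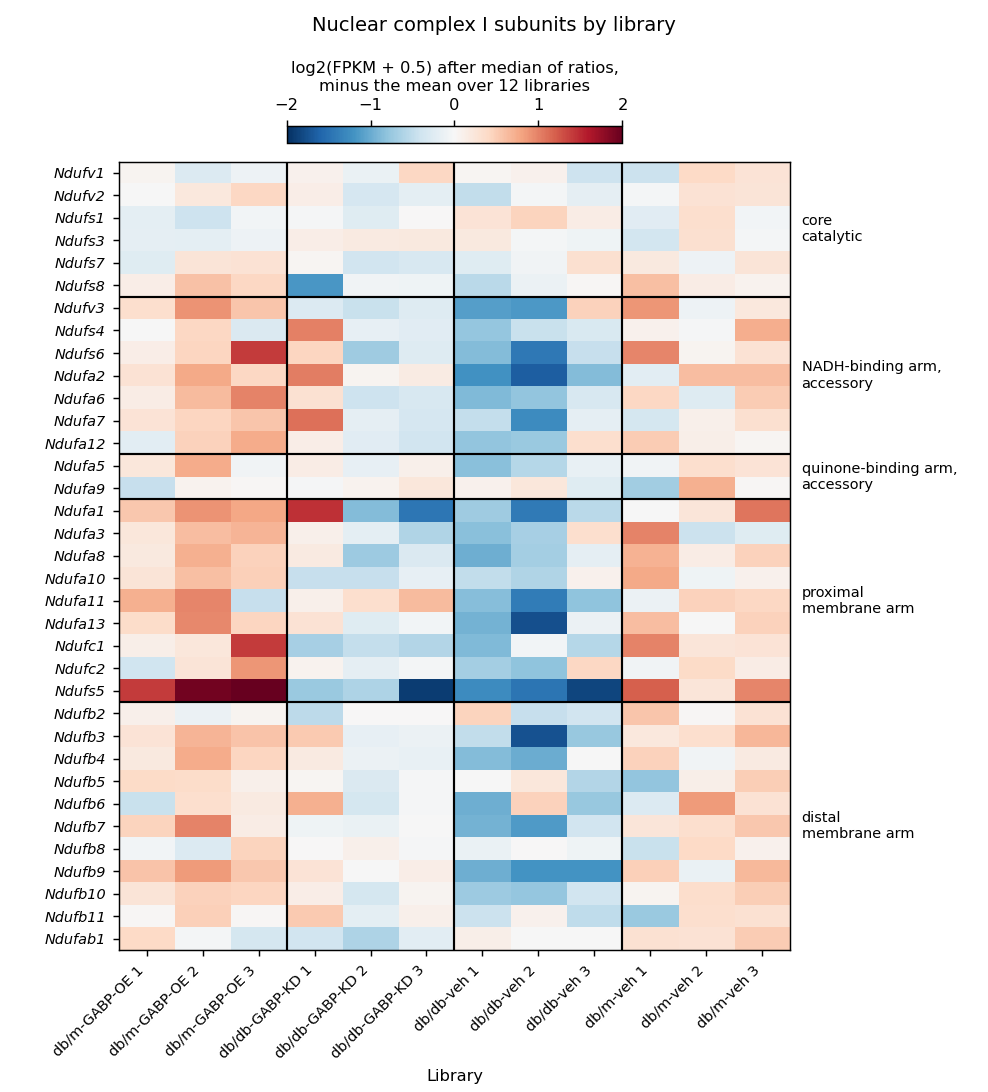
log2(FPKM + 0.5) of each subunit after median of ratios, minus its mean over the 12 libraries, with libraries in columns and subunits in rows by place in the complex. The accessory subunits are mostly low (blue) in the db/db-veh columns, whereas the core rows are pale except for Ndufs8 in db/db-GABP-KD 1; colours saturate at the ends of the scale.

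Promoter sequence was examined because GABP, NRF1 and YY1 are known regulators of respiratory chain genes. RefSeq windows of 250 bases before to 50 after the start (GRCm38.p6) were at hand for 32 of the 35 genes, as 34 windows. The GABP motif searched, CCGGAAG on either strand, occurred in 4 windows (11.8%), those of Ndufb6, Ndufb7, Ndufs3 and Ndufs8, against 8.86% of 32851 windows of all genes and 15.5% of the 13248 with a GC content of at least 55.83%. That limit is the lower quartile of the member windows. The member shares also count member windows below it, Ndufs8 at 55.0% among them. The NRF1 motif GCGCANGCGC occurred in 8 member windows (23.5%), against 4.603% of all windows and 9.65% of the GC-rich ones. Those windows belong to 7 genes, because 1 site lies in both windows of Ndufa5. The YY1 motif AANATGGCG occurred in 7 member windows (20.6%), against 2.38% and 4.14%. Its matches began after the start at 23 in Ndufc1, 25 in Ndufs7, 30 in Ndufa9, 34 in Ndufs6 and 36 in Ndufs4. They began before the start at -18 in Ndufa7 and -211 in Ndufb11. The motif contains the letters ATG of a start codon, and overlap of the matches with start codons was not tested. All motifs were searched on both strands, and no subunit held both a GABP and an NRF1 match. None of the 3 motifs was found in 15 of the 32 genes. A match is a description of the letters and not evidence of binding.

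The stretch from 200 bases before to 20 after the start is given for Ndufs5, the subunit with the widest range between libraries, Ndufb7 and Ndufs3, which hold the GABP motif, and Ndufb4, which holds the NRF1 motif at 3 places. Each is given 5′ to 3′ on the gene's strand with motif matches in capitals. The stretches lie at chr4:123718167-123718386 (minus strand) for Ndufs5, chr8:83566558-83566777 (plus) for Ndufb7, chr2:90904702-90904921 (minus) for Ndufs3 and chr16:37654349-37654568 (minus) for Ndufb4. Counting the first transcribed base as +1 and the base before it as -1, the NRF1 match of Ndufs5 begins at -98, the GABP match of Ndufb7 at -20, and those of Ndufs3 at -27 and, on the opposite strand, at 2. The NRF1 matches of Ndufb4 begin at -191, -79 and -22.
Ndufs5: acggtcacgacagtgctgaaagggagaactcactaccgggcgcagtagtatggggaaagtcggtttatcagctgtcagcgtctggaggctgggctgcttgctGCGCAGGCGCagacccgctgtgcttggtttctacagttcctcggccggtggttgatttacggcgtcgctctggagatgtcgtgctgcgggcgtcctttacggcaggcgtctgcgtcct
Ndufb7: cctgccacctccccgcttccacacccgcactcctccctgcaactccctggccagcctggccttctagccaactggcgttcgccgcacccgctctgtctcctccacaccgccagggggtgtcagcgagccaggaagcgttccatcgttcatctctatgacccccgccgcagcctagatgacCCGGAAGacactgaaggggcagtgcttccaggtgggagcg
Ndufs3: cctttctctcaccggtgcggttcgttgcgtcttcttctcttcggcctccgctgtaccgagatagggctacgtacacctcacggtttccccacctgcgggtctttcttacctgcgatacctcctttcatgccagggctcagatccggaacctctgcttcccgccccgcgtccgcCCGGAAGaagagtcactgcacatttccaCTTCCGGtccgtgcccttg
Ndufb4: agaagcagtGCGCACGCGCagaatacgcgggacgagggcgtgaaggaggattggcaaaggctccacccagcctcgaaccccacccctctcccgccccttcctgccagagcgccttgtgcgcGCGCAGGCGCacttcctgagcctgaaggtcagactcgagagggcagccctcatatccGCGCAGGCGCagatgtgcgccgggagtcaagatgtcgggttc

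The comparison of db/db-veh with db/m-veh asked how the diabetic kidney differed from the lean one, both without a change of GABP. All 35 subunits had a lower mean log2 level in db/db-veh as deposited, where 74.4% of all genes tested did. Their median log2 fold change was -1.07, against -0.24 over all genes tested. After median of ratios the medians were -0.70 and 0.01, and 32 of the 35 were below 0, against 48.8% of all genes. The lowest fold changes belonged to accessory subunits of both arms, and the core subunits lay closer to the median of all genes.

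No subunit passed limma's test as deposited (adjusted p under 0.05), with 0.0930% of all genes called; 20 had an unadjusted p under 0.05, all of them lower in db/db-veh, against 10.7% of all genes in that direction. After median of ratios 2 were called lower, Ndufs5 and Ndufb9, against 0.116% of all genes, and 17 had an unadjusted p under 0.05, against 7.09%. The voom fit of limma on recovered fragments called none on either scale. All 3 db/db-veh libraries lay below all 3 db/m-veh libraries for 20 subunits as deposited, against 14.4% of all genes tested, and for 17 after median of ratios, against 9.03%. Those 17 were all among the 20. Without db/db-veh 2, the library with the highest mitochondrial percent, the members' median was -0.77 on the deposited values and -0.63 on the scaled ones; without db/db-GABP-KD 1, which enters the estimate of spread, 3 subunits were called on either scale (Ndufa2, Ndufb9 and Ndufs5). The calls over all genes also grew in those fits, to 48 as deposited and 54 after median of ratios, against 12 and 22 with all libraries.

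Ndufs5, a proximal membrane-arm subunit on the intermembrane-space side, stood at 3.09, 1.51 and 1.67 FPKM in db/db-veh and at 20.1, 8.53 and 19.0 FPKM in db/m-veh. The groups did not overlap, and the mean in db/db-veh was 0.131 times that in db/m-veh. The log2 fold change was -2.62 (SE 0.49, limma adjusted p = 0.0564) as deposited and -2.32 (SE 0.37, adjusted p = 0.0259) after median of ratios. Its db/db-veh values rest on 18, 10 and 11 fragments. On the scaled values the call held when any of 6 libraries was left out and ended without db/m-veh 1, db/m-veh 3, any db/db-veh library or db/m-GABP-OE 2 (adjusted p 0.00956 to 0.121 over the 12 fits).

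Ndufb9, a distal membrane-arm subunit of the LYR family that holds the acyl carrier protein, stood at 4.43, 2.14 and 3.28 FPKM in db/db-veh and at 13.7, 7.40 and 17.1 FPKM in db/m-veh. All db/db-veh libraries were below all db/m-veh libraries. The log2 fold change was -1.78 (SE 0.42, limma adjusted p = 0.178) as deposited and -1.45 (SE 0.26, adjusted p = 0.0372) after median of ratios. On the scaled values the call held only when db/m-veh 2 or db/db-GABP-KD 1 was left out, and ended in the other 10 fits with 1 library less (adjusted p 0.0232 to 0.257).

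Ndufa2, an accessory subunit of the NADH-binding arm with a thioredoxin-like fold, stood at 17.3, 7.26 and 19.3 FPKM in db/db-veh and at 37.5, 55.9 and 73.6 FPKM in db/m-veh. The log2 fold change of Ndufa2 was -1.95 (SE 0.53, limma adjusted p = 0.241) as deposited and -1.59 (adjusted p = 0.107) after median of ratios. Ndufa11, which joins parts of the membrane arm, stood at 4.46, 1.66 and 4.05 FPKM in db/db-veh and at 8.21, 10.5 and 13.4 FPKM in db/m-veh. That of Ndufa11 was -1.59 (SE 0.44, limma adjusted p = 0.245) as deposited and -1.27 (adjusted p = 0.194) after median of ratios. Neither gene's groups overlapped on either scale, and neither passed the test with all libraries.

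**Figure D3:**
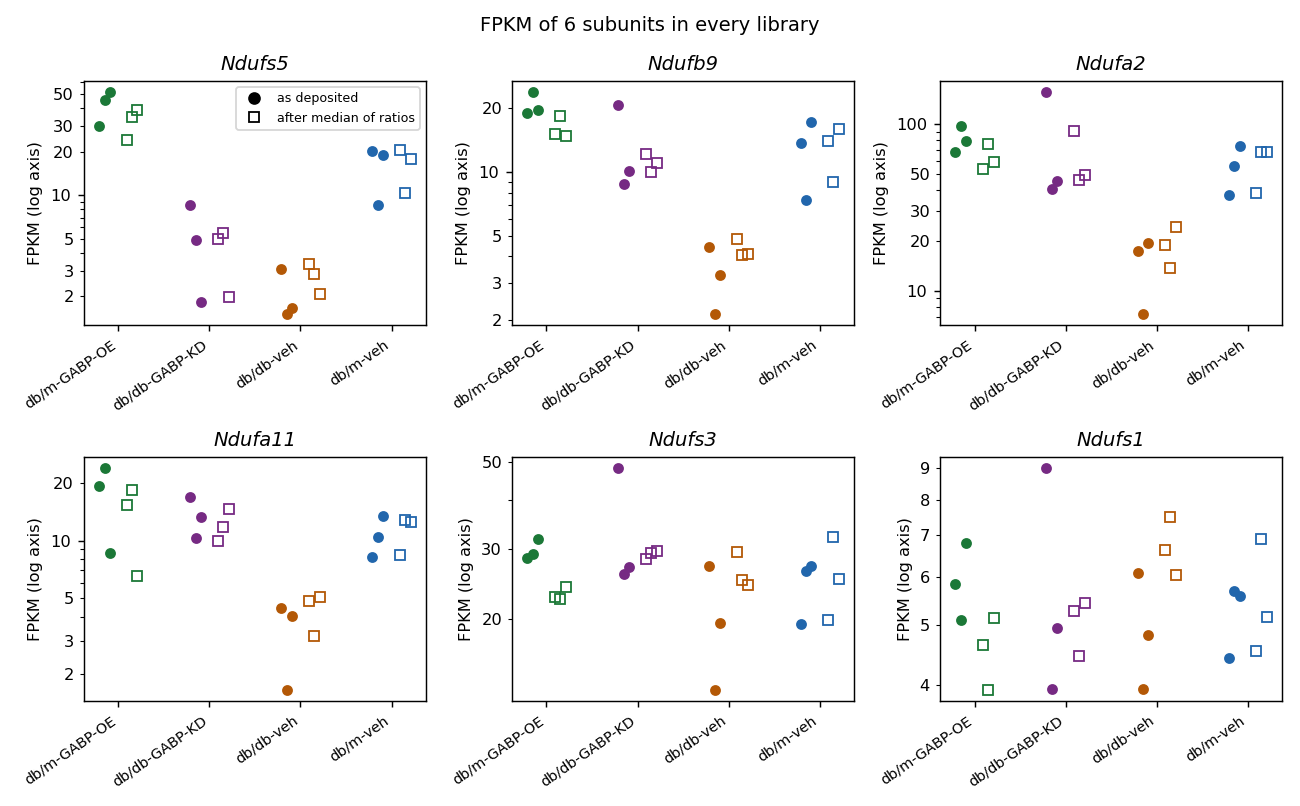
FPKM of 6 subunits in every library on a log axis, as deposited (filled circles) and after median of ratios (open squares), by group. For Ndufs5, Ndufb9, Ndufa2 and Ndufa11 the db/db-veh points lie below every db/m-veh point on both scales, and for Ndufs3 and Ndufs1 they overlap.

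By place in the complex, the proximal membrane-arm genes had a median log2 fold change in db/db-veh over db/m-veh of -1.42 as deposited and -1.04 after median of ratios, with 6 of 9 not overlapping on the scaled values, where 9.03% of all genes were lower without overlap. The NADH-binding-arm accessory genes were at -1.25 and -0.88, with 4 of 7 not overlapping, among them Ndufs4 and Ndufs6, which are known to be needed for its assembly. The distal membrane-arm genes were at -1.07 and -0.72, with 5 of 11 not overlapping. The 6 core genes, which carry the redox centres or hold them in place, were at -0.52 and -0.14, with only Ndufs8 not overlapping. Differences between these places were not tested.

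Ndufs1, the largest core subunit, with several iron-sulphur clusters, stood at 6.09, 3.95 and 4.83 FPKM in db/db-veh and at 4.44, 5.68 and 5.57 FPKM in db/m-veh. Ndufs1 had a log2 fold change of -0.08 (95% interval -0.83 to 0.66) as deposited and 0.27 (95% interval -0.23 to 0.77) after median of ratios. Ndufs3, a core subunit of the quinone-binding module, stood at 27.1, 13.2 and 19.5 FPKM in db/db-veh and at 19.4, 26.5 and 27.2 FPKM in db/m-veh. Ndufs3 had one of -0.32 as deposited and 0.05 (95% interval -0.48 to 0.58) after median of ratios. Together with Ndufa9 at 0.01, these were the 3 subunits above 0 on the scaled values, and none of the 3 passed the test.

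Other genes of the respiratory chain were read on the same scale, after median of ratios. The 39 nuclear subunits of complexes II to V had a median log2 fold change of -0.73 in db/db-veh against db/m-veh, with 33 below 0 and 0 called by limma. At an unadjusted p under 0.05, 17 of them were lower, against 7.09% of all genes. The 17 complex I assembly factors were at -0.23, with 12 below 0, and the 7 mitochondrially encoded complex I genes were at 0.35, with 6 above 0. Neither list held a called gene. As deposited the mitochondrially encoded complex I genes were at -0.03, with 3 above 0 and 4 below, so their rise was seen on the scaled values only. Genes for ribosomal proteins, which are mostly short, had medians of -0.42 over 77 mitochondrial and -0.53 over 77 cytosolic ones, with 0 called. The 9 regulators, Gabpa, Gabpb1 and Ppargc1a among them, had a median of 0.07. The list of complexes II to V included Atp5e and Uqcr11, small subunits of ATP synthase and of complex III. After scaling, Atp5e averaged 14.8 ± 0.414 FPKM in db/db-veh and 38.02 ± 6.85 FPKM in db/m-veh (SD, n = 3 each), and Uqcr11 averaged 29.8 ± 20.7 FPKM in db/db-veh and 84.1 ± 8.31 FPKM in db/m-veh.

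Messenger RNA length moved with this difference. Length was that of the transcript marked principal in GENCODE M21, the longest where several shared the best mark, and need not be the main mRNA in kidney. Over the 35 genes its median was 908 bases (419 to 4371), against 2898 bases over the protein-coding genes tested. The longest belonged to Ndufb2 (4371 bases) and Ndufab1 (3479 bases). Among other genes the median log2 fold change of db/db-veh over db/m-veh after median of ratios was -0.52 for mRNAs under 800 bases, -0.25 from 800 to under 1500, -0.03 from 1500 to under 3000 and 0.10 from 3000 up. The subunits in the same ranges were at -1.20 (15 genes), -0.55 (12), -0.50 (6) and -0.38 (2), lower than the other genes in each range. Across the 35 subunits Spearman's rho of the fold change with length was 0.50, and across 12822 other genes 0.30; the genes share the same libraries. The part of length in the subunits' difference was not tested. Summed red blood cell markers, all 5 measured, also differed, at 134 to 330 FPKM in db/db-veh and 582 to 1187 FPKM in db/m-veh, and their part in the result was not tested.

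**Figure D4:**
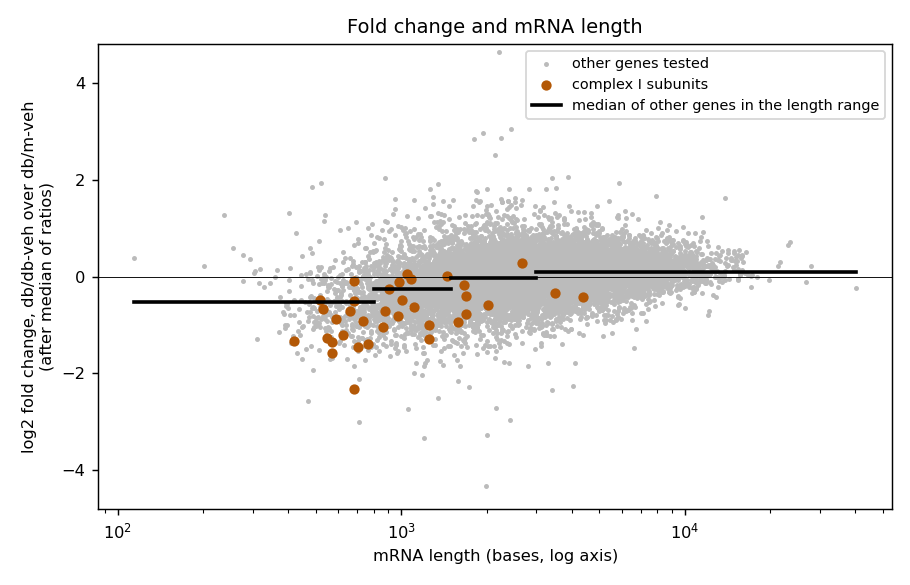
log2 fold change of db/db-veh over db/m-veh after median of ratios against mRNA length (log axis), for the 35 subunits (orange) and all other genes tested (grey), with black lines at the median of the other genes in 4 length ranges. Short mRNAs lie lower in both sets, and the subunits under 800 bases have a median of -1.20 beside -0.52 for other genes of that length.

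The comparison of db/m-GABP-OE with db/m-veh asked how the lean kidney labelled GABP-OE differed from its control. The rise of Gabpa there did not pass limma's test on either scale. The subunits' median log2 fold change was 0.54 as deposited, against 0.38 over all genes tested, and 33 of 35 were above 0, where 88.5% of all genes were. After median of ratios the medians were 0.11 and 0.04, with 26 of 35 above 0 against 55.9% of all genes. With equal nuclear FPKM sums the members' median was -0.029. That scaling shifts all genes of a library alike, and the median of all genes under it is not given here. No subunit passed limma's test on either scale, where 1.90% of all genes did as deposited and 0.209% after median of ratios; Ndufs5 was the 1 subunit with an unadjusted p under 0.05, where 14.5% of all genes had one and were higher as deposited and 5.50% after median of ratios. voom called none.

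All db/m-GABP-OE libraries lay above all db/m-veh libraries for 6 subunits as deposited (Ndufa7, Ndufa13, Ndufb4, Ndufb9, Ndufs3 and Ndufs5), a smaller share than the 30.4% of all genes, and for Ndufs5 alone after median of ratios, against 9.72% of all genes. Ndufs5 stood at 30.0, 45.2 and 51.4 FPKM in db/m-GABP-OE and at 20.1, 8.53 and 19.0 FPKM in db/m-veh. In db/m-GABP-OE over db/m-veh its log2 fold change was 1.44 (SE 0.49, limma adjusted p = 0.160) as deposited and 1.01 (SE 0.37, adjusted p = 0.437) after median of ratios. Its promoter stretch above holds an NRF1 match and no GABP match.

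The next 3 subunits by unadjusted p were Ndufb5, Ndufb9 and Ndufa6, the last an LYR-family subunit of the matrix arm. Ndufb9 stood at 19.0, 23.8 and 19.5 FPKM in db/m-GABP-OE and at 13.7, 7.40 and 17.1 FPKM in db/m-veh, with a log2 fold change of 0.75 (limma adjusted p = 0.418). Ndufb5 stood at 5.85, 5.92 and 4.92 FPKM in db/m-GABP-OE and at 1.73, 3.08 and 5.42 FPKM in db/m-veh, which overlap (log2 fold change 0.74, limma adjusted p = 0.401). Ndufa6 stood at 41.3, 59.8 and 78.9 FPKM in db/m-GABP-OE and at 38.6, 20.3 and 45.5 FPKM in db/m-veh, which overlap as well (0.81, limma adjusted p = 0.462). On the scaled values the log2 fold change was 0.33 for Ndufb9, 0.35 for Ndufb5 and 0.37 for Ndufa6, and the groups overlapped for each.

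A link between the GABP motif and the fold change was not tested for the 4 subunits that hold it. As deposited their log2 fold changes in db/m-GABP-OE over db/m-veh were 0.59 for Ndufb7, 0.54 for Ndufs8, 0.30 for Ndufs3 and 0.15 for Ndufb6, beside the members' median of 0.54. Ndufab1 at -0.02 and Ndufb2 at -0.05 were the 2 subunits below 0. On the scaled values the core genes had a median of -0.07, the NADH-binding-arm genes 0.21, the proximal membrane-arm genes 0.19 and the distal membrane-arm genes 0.10. The nuclear genes of complexes II to V were at 0.06, the assembly factors at -0.07 and the mitochondrially encoded complex I genes at -0.60, with 0 called by limma in any of these lists and 1 unadjusted p under 0.05, among the mitochondrially encoded genes. As deposited these medians were 0.49, 0.31 and -0.16. The mitochondrial percent of fragments was 58.6% to 64.2% in db/m-GABP-OE and 67.9% to 77.8% in db/m-veh, and the sum of 4 leukocyte markers was 8.58 to 15.8 FPKM in db/m-GABP-OE and 1.99 to 2.68 FPKM in db/m-veh. The 2 thick ascending limb markers (Umod and Slc12a1) summed to 148 to 155 FPKM in db/m-GABP-OE and 64.0 to 86.1 FPKM in db/m-veh. The 5 adipocyte markers summed to 12.9 to 16.1 FPKM in db/m-GABP-OE and 3.97 to 10.9 FPKM in db/m-veh as deposited, with Adipoq at 0 in db/m-veh, and overlapped after median of ratios. The 5 red blood cell markers, all with a log2 fold change below 0, summed to 301 to 944 FPKM in db/m-GABP-OE and 582 to 1187 FPKM in db/m-veh, which overlap. The part of these markers and of the mitochondrial percent in the subunits' values was not tested.

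The comparison of db/db-GABP-KD with db/db-veh asked what a lowered GABP did in the diabetic kidney, with the reservation that the label was not borne out by Gabpa, which was no lower there. All 35 subunits had a higher mean log2 level in those libraries as deposited, where 86.4% of all genes did, with a median log2 fold change of 0.93 against 0.42 over all genes tested. After median of ratios the medians were 0.33 and 0.00, with 28 of 35 above 0 against 50.3% of all genes. None passed limma's test on either scale, nor with voom; limma called 0.00% of all genes as deposited and 0.0388% after median of ratios. At an unadjusted p under 0.05, 15 subunits were higher as deposited, against 13.7% of all genes, and 8 after median of ratios, against 2.88%.

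For most subunits the first db/db-GABP-KD library differed from the rest of its group. It was above both other db/db-GABP-KD libraries in 33 of 35 subunits as deposited and in 21 after median of ratios, when it was below both in 7. Ndufa1, a small membrane-arm subunit encoded on the X chromosome, was 11.9 times as high in db/db-GABP-KD 1 as in the mean of the other 2 as deposited, and 6.22 times after median of ratios. Ndufs8 was the other way round, at 0.469 times after median of ratios. Without db/db-GABP-KD 1 the members' median was 0.52 on the deposited values and 0.23 on the scaled ones.

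All db/db-GABP-KD libraries lay above all db/db-veh libraries for 15 subunits as deposited, against 17.3% of all genes, and for 7 after median of ratios, against 4.63%. The 7 were Ndufa2, Ndufa11, Ndufb3, Ndufb7, Ndufb9, Ndufb10 and Ndufs4, all among the 15, and all of them among the 17 that were lower in db/db-veh than in db/m-veh; the 2 comparisons share the db/db-veh libraries. Ndufab1 and Ndufs1 lay below all db/db-veh libraries after median of ratios, against 5.67% of all genes.

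Ndufa11 stood at 16.9, 10.3 and 13.3 FPKM in db/db-GABP-KD and at 4.46, 1.66 and 4.05 FPKM in db/db-veh. Ndufa11 had a log2 fold change of 1.91 (SE 0.44, limma adjusted p = 0.229) as deposited and 1.38 (adjusted p = 0.322) after median of ratios. The db/db-GABP-KD 1 library did not stand apart for this gene and was the lowest of the 3 after scaling, at 9.91 FPKM. Ndufa2 stood at 155, 40.9 and 45.2 FPKM in db/db-GABP-KD and at 17.3, 7.26 and 19.3 FPKM in db/db-veh. Ndufa2 had one of 2.25 (SE 0.53, limma adjusted p = 0.229) as deposited and 1.66 (adjusted p = 0.174) after median of ratios. For Ndufa2, db/db-GABP-KD 1 was far above the other libraries of its group, yet those were also above all of db/db-veh.

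Ndufb9 stood at 20.8, 8.81 and 10.1 FPKM in db/db-GABP-KD and at 4.43, 2.14 and 3.28 FPKM in db/db-veh. Its log2 fold change was 1.80 (SE 0.42, limma adjusted p = 0.229) as deposited and 1.26 (adjusted p = 0.174) after median of ratios, when its libraries stood at 12.2, 9.97 and 11.0 FPKM in db/db-GABP-KD. Ndufb3, a small distal membrane-arm subunit, stood at 53.4, 17.1 and 18.3 FPKM in db/db-GABP-KD and at 14.1, 3.23 and 10.1 FPKM in db/db-veh. Its log2 fold change was 1.65 (SE 0.53, limma adjusted p = 0.337) as deposited and 1.08 (adjusted p = 0.505) after median of ratios. None of these 4 genes' groups overlapped on either scale.

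Ndufs5 behaved otherwise. It stood at 8.54, 4.88 and 1.82 FPKM in db/db-GABP-KD and at 3.09, 1.51 and 1.67 FPKM in db/db-veh, and these overlap. The log2 fold change was 0.95 (SE 0.49, limma adjusted p = 0.353) as deposited and 0.43 (95% interval -0.35 to 1.22) after median of ratios. All 6 db/db libraries, with or without the GABP-KD label, lay at or below 8.54 FPKM and all 6 db/m libraries at or above 8.53 FPKM. As deposited these sets overlapped narrowly, with db/db-GABP-KD 1 just above db/m-veh 2. After median of ratios the highest of the db/db libraries was at 5.52 FPKM and the lowest of the db/m libraries at 10.4 FPKM.

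By place, the NADH-binding-arm genes had the highest median log2 fold change in db/db-GABP-KD over db/db-veh after median of ratios, at 0.72, followed by the distal membrane-arm genes at 0.54, the proximal membrane-arm genes at 0.33 and the core genes at -0.06. The nuclear genes of complexes II to V were at 0.47, with 31 of 39 above 0, the cytosolic ribosomal protein genes at 0.60, the assembly factors at -0.19 and the mitochondrially encoded complex I genes at -0.89. Medians as deposited are not given here for these lists. Limma called 0 genes in each of these lists. An unadjusted p under 0.05, without regard to direction, was reached by 6 of 39, 23 of 77, 0 and 0 of them. Over all genes 2.88% had one and were higher, and the share in either direction is not given here. Here too short mRNAs were higher among other genes, with a median of 0.30 under 800 bases and 0.10 from 800 to 1499 bases, where the subunits were at 0.61 and 0.19. Summed thick ascending limb markers (Umod and Slc12a1) were at 14.5 to 30.9 FPKM in db/db-GABP-KD and 34.0 to 106 FPKM in db/db-veh, and the mitochondrial percent at 48.0% to 75.5% in db/db-GABP-KD and 75.1% to 86.0% in db/db-veh. The 5 red blood cell markers summed to 32.9 to 266 FPKM in db/db-GABP-KD and 134 to 330 FPKM in db/db-veh as deposited, and to 37.2 to 156 FPKM in db/db-GABP-KD and 255 to 412 FPKM in db/db-veh after median of ratios, when all 5 were lower without overlap. The 4 leukocyte markers summed to 4.55 to 11.6 FPKM in db/db-GABP-KD and 0.588 to 3.96 FPKM in db/db-veh as deposited, and to 4.98 to 6.795 FPKM in db/db-GABP-KD and 1.12 to 4.935 FPKM in db/db-veh after median of ratios. The 3 podocyte markers summed to 8.54 to 30.2 FPKM in db/db-GABP-KD and 3.28 to 7.95 FPKM in db/db-veh, and overlapped after median of ratios. The part of these markers and of the mitochondrial percent in the subunits' values was not tested.

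**Figure D5:**
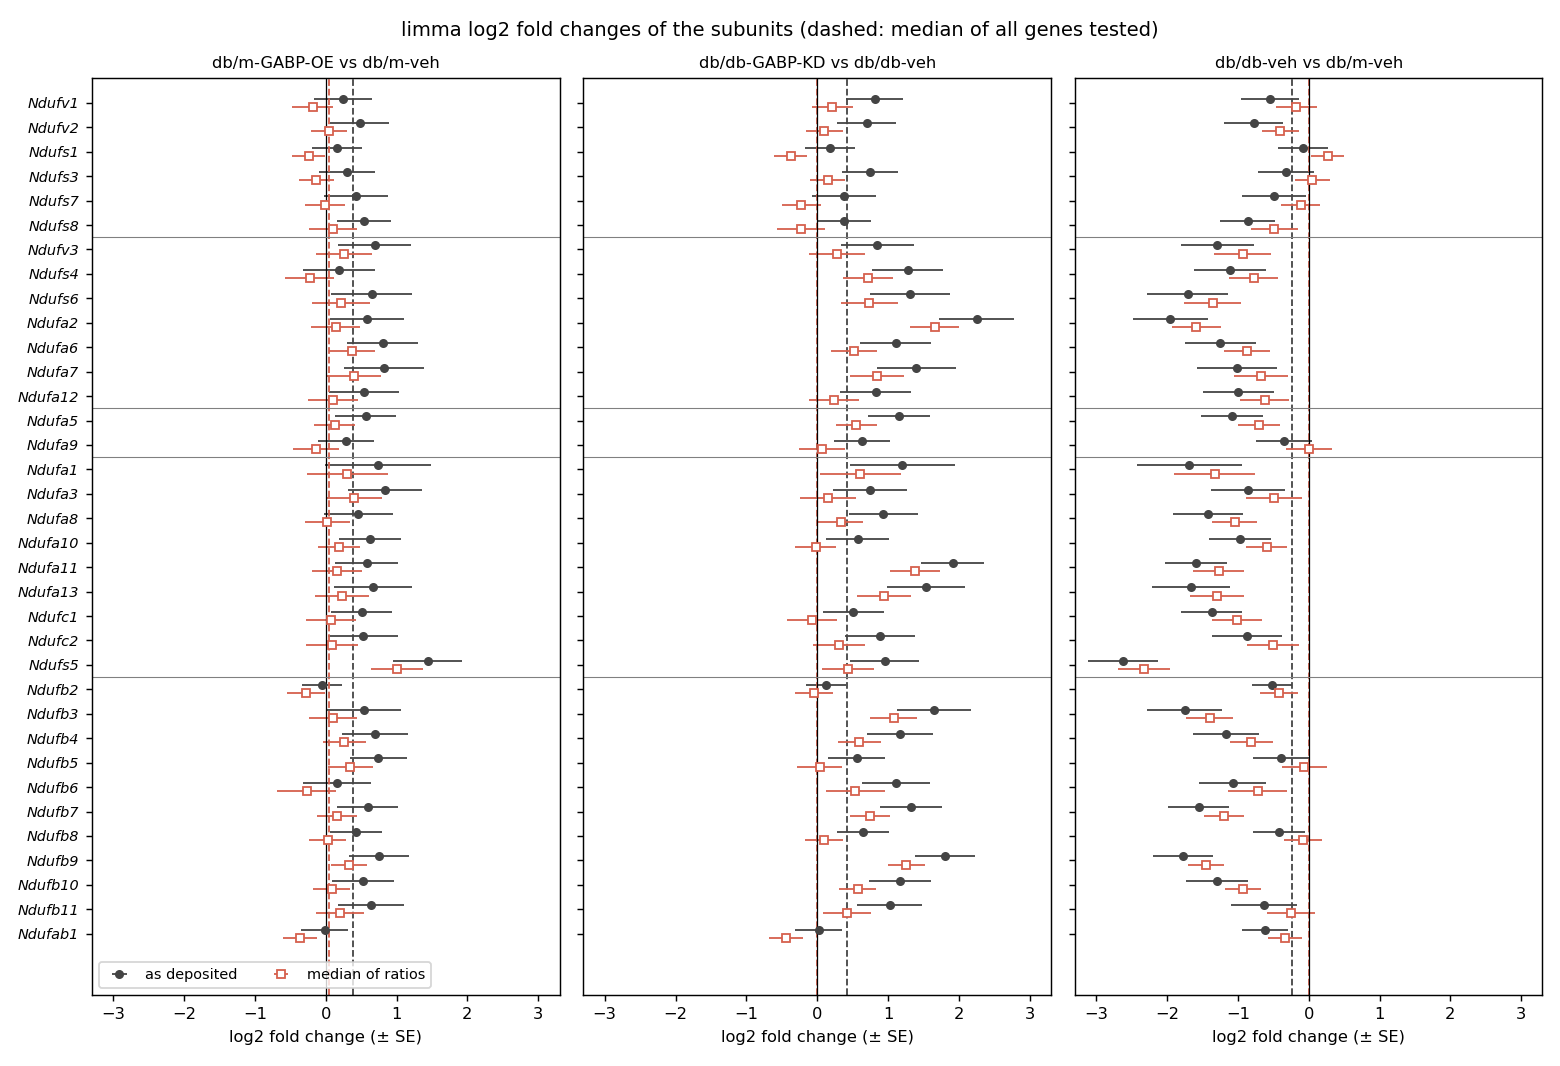
limma log2 fold change (± SE) of each subunit in the 3 comparisons, as deposited (filled circles) and after median of ratios (open squares), with dashed lines at the median of all genes tested and grey lines between places in the complex. The accessory subunits lie mostly left of the dashed lines in the diabetic comparison, Ndufs5 farthest, and in the GABP-KD comparison Ndufa2, Ndufa11 and Ndufb9 lie farthest to the right.

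The difference under the GABP-OE label was also set against that under the GABP-KD label in 1 contrast. This contrast was the OE difference from db/m-veh minus the KD difference from db/db-veh. Over the members its median was -0.38 on the deposited values and -0.23 on the scaled ones, against -0.05 and 0.05 over all genes tested. It was 0.06 as deposited without db/db-GABP-KD 1, -0.08 when db/db-veh 2 was left out and -0.69 when db/db-veh 3 was, so its sign as deposited turned with db/db-GABP-KD 1 and its size with the db/db-veh libraries. Limma called no subunit, where 0.132% of all genes were called as deposited and 0.0775% after median of ratios; 2 subunits had an unadjusted p under 0.05 as deposited, Ndufa2 and Ndufa11, against 1.31% of all genes below 0, and 3 after median of ratios, when Ndufb9 joined them, against 1.96%. On the deposited values Ndufa2 had a difference of -1.67 (95% interval -3.24 to -0.10, limma adjusted p = 0.862), Ndufa11 of -1.34 (-2.66 to -0.02, adjusted p = 0.898), Ndufb9 of -1.05 (-2.31 to 0.22, adjusted p = 1.00) and Ndufs4 of -1.09 (-2.60 to 0.42, adjusted p = 1.00).

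Some counts may include reads of other genes. At least 1 pseudogene copy with 90% identity over at least 200 bases exists for 12 of the 35 genes, among them Ndufs5, Ndufa11, Ndufb3 and Ndufb7, and for none of Ndufb9, Ndufa2 and Ndufs1. Exon bases are shared with another gene in 15, up to 39.0% for Ndufb6 (with Smim27) and 29.98% for Ndufa13 (with Tssk6). Of the genes that led the comparisons, Ndufb9 (GRCm38 chromosome 15, 58933756 to 58939488, plus strand) shares 19.5% with Gm49356, Ndufa2 (chromosome 18, 36742332 to 36744557, minus strand) shares 11.5% with Tmco6, and Ndufa11 (chromosome 17, 56717767 to 56722141, plus strand) shares 6.41% with Vmac. Ndufs5 (chromosome 4, 123712710 to 123718202, minus strand) shares none. The sources used here do not give the strand setting of the counting.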

How the data were processed

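Poly(A) RNA of mouse kidney was fragmented, copied with random primers and sequenced as paired ends in 12 libraries, per the labels' protocols. The values are FPKM per gene and library as deposited by the authors. Per the submitters' processing notes, HTSeq and the GRCm39 build were used; the sources used here do not give the aligner or annotation. Multiplying by GENCODE M21 (GRCm38) merged exon lengths and library totals gave whole fragments (tolerance 0.05) for all 35 genes in every library, so coordinates are given in GRCm38, although the notes name another build. No value column was left unused.

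Tests used log2(FPKM + 0.5) values in limma 3.58.1 (R 4.3.3), with all 12 libraries in 1 fit, a variance trend, two-sided tests and Benjamini-Hochberg adjustment over 12897 genes. Fold changes are on that scale, which understates low genes. Median-of-ratios factors came from 5884 genes above FPKM 1 in every library. The fit was tried on simulated data that left out the mitochondrially encoded genes and gave all genes the same dispersion. That trial therefore did not cover the differences in mitochondrial percent between these libraries. Copies were searched with blastn 2.17.0 in GENCODE transcripts. Other steps used Python 3.11.15 with pandas 2.3.3, numpy 2.4.6 and matplotlib 3.10.9. Alternatives were other pseudocounts, filters and scalings, no variance trend, a replicate block, the compared groups alone, each library left out, and voom.

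The members and lists were chosen with earlier results of these data known. Full values are given for the 4 members with the smallest unadjusted p in each comparison and for any called, besides the highest and lowest in level and those with a sign opposite to the members' median, of which some are given only as counts. Ndufs5 in the GABP-KD comparison, the members with the GABP motif and the likeness to other members were added after the values were seen. The fragment totals set the precision: a db/db-veh library held 1.08 to 1.91 M nuclear fragments, and fragments are not independent molecules where PCR copied them. 1 gene of the leukocyte marker list is not reported here and was left out of its sums.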

Additional observations from a re-analysis of the deposited data

How the results depend on the processing

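The members' median in db/db-veh against db/m-veh kept its sign in all 37 alternatives (-1.32 to -0.38). Subunits called lower there numbered 0, against 1 with a pseudocount of 0.1, a filter of FPKM 1, equal nuclear FPKM sums or the 2 groups alone, and 2 with median of ratios or quantile normalization; with 1 library left out, as deposited or scaled, they numbered 0 to 3. The median was -0.38 with equal nuclear sums, -0.62 with quantile normalization and -1.32 to -0.63 with 1 library left out. For db/m-GABP-OE it was 0.11 with median of ratios, with or without the replicate block, 0.11 with voom on that scale, 0.082 with quantile normalization, -0.029 with equal nuclear sums and 0.014 to 0.68 with 1 library left out. For db/db-GABP-KD it was 0.21 with equal nuclear sums, 0.25 with quantile normalization, 0.32 with voom after median of ratios, and 0.23 to 1.21 with 1 library left out. The difference of the effects ran from -0.69 to 0.06 with 1 library left out. Ndufb5 in db/m-GABP-OE turned to -0.012 after median of ratios without db/m-veh 1, the lowest of -0.012 to 1.10 over the fits with 1 library left out. The cause was not tested. Over all genes the count of calls was 12 (2 to 54 over the alternatives) in db/db-veh, 245 (6 to 590) in db/m-GABP-OE, 0 (0 to 11) in db/db-GABP-KD and 17 (0 to 46) for the difference. voom and the left-out fits after median of ratios were chosen after seeing the data. Replicate numbers did not pair the libraries (same-number correlations -0.478 to 0.382); with the number as a block 0 subunits were called in each comparison, also after median of ratios, where Ndufs5 and Ndufb9 were called in db/db-veh without it. Depth limits Ndufs5 and Ndufb2 most, with 10 and 5 fragments in their poorest library.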
